A study of Mus musculus with 8 samples.

Results

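The cytosolic ribosomal protein genes were examined on 8 Affymetrix mouse arrays hybridised with RNA of E11.5 embryos, 4 arrays of FAK mutants and 4 of controls. The genes were chosen by symbol: Rpl or Rps followed by a number, with an optional a, x or l, plus Rplp0 to Rplp2 and Rpsa, without the S6 kinase genes, pseudogenes and Y-linked copies. Each gene was then read from the brightest of the probe sets that the annotation ties to it alone. This gave 46 genes of the 18193 genes with a probe set of their own, 24 of the large and 22 of the small ribosomal subunit. The RefSeq gene table lists 83 symbols of this form, and the other 37, Rpl3, Rpl10, Rpl10l and Rplp1 among them, were not analysed here. FAK (focal adhesion kinase) relays signals from integrins where cells attach to matrix. One control and one mutant array carried cranial neural crest cells sorted on p75, a surface receptor of these cells, from the head and thorax of 3 pooled embryos each. The other 6 arrays carried head or neck samples named LM, OFT and UM, 1 control and 1 mutant array each, and the labels do not spell these names out. The series title calls the controls wild type. The allele, any driver of its recombination, the strain and the number of embryos behind the LM, OFT and UM arrays are not given in the sources used here, and the transcript of FAK itself was not analysed here. Each origin had 1 array per genotype, so p-values rest on the spread between origins and arrays, which may be technical.

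The cytosolic ribosome translates messenger RNA. Its small subunit reads the codons, its large subunit joins the amino acids, and nearly every ribosomal protein is present once in each ribosome, so their genes are transcribed at high and matched rates in growing embryonic tissue. In mammals their messenger RNAs begin with a C followed by a run of pyrimidines, the 5′ TOP tract, through which the mTOR pathway sets how well they are translated. These transcripts are short, abundant and copied into many processed pseudogenes. Arrays read such families with difficulty, and Affymetrix marks probe sets whose probes also match other sequences as x type, those shared by several transcripts as s type, and those shared by variants of 1 gene as a type.

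RefSeq promoters (GRCm38.p6, 250 bases before to 50 after the annotated start) were found for 40 of the 46 genes. A tract of a C followed by at least 6 pyrimidines, on the transcribed strand within 50 bases of a start, was present for 36 of them, which is 90% against 44.5% of 27025 genes. The letters CCGGAA, searched over the 300 bases on both strands, were present for 65% of the genes against 16.7% of all. AANATGGC was present for 12.5% against 6.96%, and TATAAA for 12.5% against 15.7%. A gene with several starts was counted if any start held the letters, and these are matches of letters, not binding sites. The starts of 6 genes are shown because the results below turn on them. Each runs from 40 bases before to 20 bases from the start on, and capitals mark the longest pyrimidine tract. Rps27 (chr3:90213629-90213688, minus strand) differed most within origins, Rps10 (chr17:27635225-27635284, minus), Rps24 (chr14:24490638-24490697, plus, the first of 2 starts) and Rpl37 (chr15:5116573-5116632, plus) were lower in p75-sorted cells, and Rps25 (chr9:44407674-44407733, plus) and Rpl27a (chr7:109519155-109519214, plus) were higher there.
Rps27: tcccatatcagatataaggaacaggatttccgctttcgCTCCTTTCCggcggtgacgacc
Rps10: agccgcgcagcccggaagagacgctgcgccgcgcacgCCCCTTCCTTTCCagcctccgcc
Rps24: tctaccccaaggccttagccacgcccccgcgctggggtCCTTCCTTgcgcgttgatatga
Rps25: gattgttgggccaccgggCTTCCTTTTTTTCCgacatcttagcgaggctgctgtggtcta
Rpl27a: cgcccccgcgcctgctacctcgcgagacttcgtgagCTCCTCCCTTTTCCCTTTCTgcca
Rpl37: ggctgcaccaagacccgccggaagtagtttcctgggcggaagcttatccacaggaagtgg
In these pieces the tract lies across the annotated start in Rps27, Rps10, Rps24 and Rpl27a and ahead of it in Rps25, and the piece of Rpl37 holds none. The other start of Rps24 has a tract of 18 bases ahead of it. The piece of Rpl37a, not shown and also lower in p75-sorted cells, holds none. Genes of both directions in the p75 comparison carry it.

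Values are the deposited intensities, compared as log2(intensity + 32), which understates differences of dim genes. A gene was tested if at least 2 arrays lay above an intensity of 19.4. This kept 44 of the 46 genes, 23 of the large and 21 of the small subunit, among 13543 genes. Rpl39l, just inside, reached 34.1 at most. Just outside, Rpl3l, the muscle-specific copy of Rpl3, reached 8.79, and Rps16 4.61. Of the 44 genes, 33 had a mean log2 signal of at least 12 and are called bright below, a limit set after the values were seen. The signal of a probe set depends on its probes, and gene was not set against gene. The brightest were Rps29, Rps28 and Rps14. Among the 44 genes, 29.5% were read from x type probe sets, against 4.25% of all genes tested.

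The arrays differed from each other at the bright end before any gene is compared. The arrays lay on like scales, with median intensities of all probe sets from 29.7 to 35.8. Yet the cre 3′ spike-in, a phage transcript that embryos do not make, read 31786 on the LM control and 13544 on the LM mutant. It read 11769 on the UM control and 17394 on the UM mutant, 6796 and 10519 on the p75 control and mutant, and 12680 and 11536 on the OFT pair. The 18 phage and bacterial spike-in probe sets together did not follow this in every origin, with median mutant minus control differences of 0.49 for p75, -1.01 for LM, -0.01 for OFT and -0.03 for UM on the log2 scale. The p75 arrays also stood apart in how much brighter the 3′ Gapdh control probe set was than the 5′ one, with ratios of 2.82 and 4.91 against 0.700 to 0.986 on the other 6. For Actb that ratio was 1.57 and 1.65, inside the 1.42 to 1.94 of the others. Sox10 and Ngfr, which mark neural crest and encode in the second case p75 itself, read 1512 and 1620 (Sox10) and 1043 and 1422 (Ngfr) in p75-sorted cells. On the other arrays they read at most 57.5 and 149. Heart muscle markers, 6 of 6 on the array, summed to 10489 and 11583 on the OFT arrays and to 24.99 to 288 elsewhere.

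Mutant against control asked whether the loss of normal FAK went with a common change of ribosomal protein transcripts across the 4 origins. No such gene was called. By limma, 0 of 44 genes were higher and 0 lower at an adjusted p of 0.05, where 0% of all 13543 genes were called higher and 0% lower. At an unadjusted p under 0.05 there were 0 of the 44 genes and 412 of all genes, 3.04%. The median difference of the 44 genes was 0.01, beside -0.01 for all genes, with 25 above and 19 below 0. Leaving out 1 pair at a time moved it to -0.06 (p75 left out), 0.21 (LM), 0.03 (OFT) and -0.09 (UM), so its sign depended on which pairs were in.

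Rpl39, a small protein of the peptide exit tunnel, came nearest. Its probe set read 93.4 in the control and 119 in the mutant of p75-sorted cells, 113 and 121 in LM, 88.0 and 104 in OFT, and 94.6 and 122 in UM. The mutant was the higher of each pair, but the mutant and control arrays overlapped, and the difference of 0.20 ± 0.12 (moderated SE, 4 pairs) did not pass by limma (adjusted p = 0.9997). Rps9, a protein at the mRNA entry, differed by 0.15 ± 0.16 and Rps6, the substrate of S6 kinase, by 0.09 ± 0.13. On the lower side, Rps27 differed by -0.33 ± 0.30, Rpl27 by -0.14 ± 0.16 and Rpl39l by -0.12 ± 0.14. Rplp0 and Rplp2, proteins of the stalk that recruits elongation factors, and Rpsa, the laminin receptor precursor at the ribosome's mRNA exit, differed by 0.02 ± 0.17, -0.02 ± 0.19 and 0.03 ± 0.19. The median SE of the 44 genes was 0.16.

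Within origins most of the genes differed in 1 direction, lower in the LM mutant and higher in the UM mutant. The median mutant minus control difference was -0.53 in LM, with 39 of 44 genes lower, and 0.41 in UM, with 40 of 44 higher. It was 0.26 in p75-sorted cells, with 35 higher, and -0.03 in OFT, with 19 higher and 25 lower. Medians of all genes tested were -0.04, 0.04, -0.02 and -0.05 in the same order. All 33 bright genes were lower in the LM mutant, by -0.98 to -0.30, and all 33 were higher in the UM mutant, by 0.11 to 0.81. Their median intensity was 13029 on the LM control and 9153 on the LM mutant, 8098 and 10284 on the UM control and mutant, 6314 and 7951 on the p75 arrays and 7381 and 7536 on the OFT arrays. The LM control and the UM mutant were thus the brightest arrays. The large and the small subunit did not part: their medians were -0.56 and -0.50 in LM and 0.44 and 0.36 in UM. With 1 array per genotype these differences have no replicate check and no test.

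**Figure D1:**
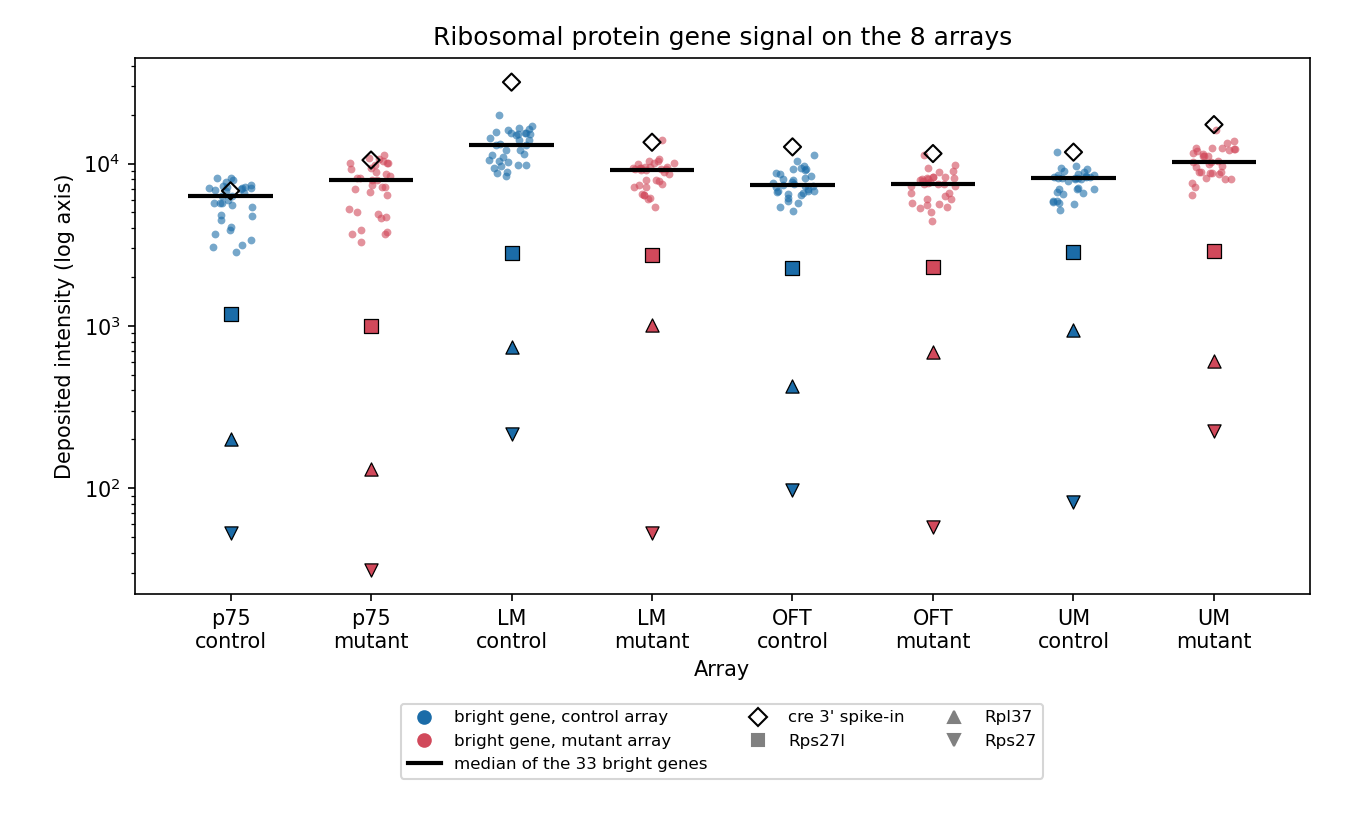
Deposited intensity on a log axis for the 33 bright ribosomal protein genes (circles, median as a bar), for Rps27l, Rpl37 and Rps27, and for the cre 3′ spike-in (diamonds) on each of the 8 arrays. The LM control and the UM mutant have the highest medians, 13029 and 10284, and also the highest signals of this spike-in. The 18 spike-in probe sets together had a median mutant minus control difference of -0.03 in UM.

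Other bright probe sets differed in the same directions as the bright ribosomal protein genes in p75, LM and UM. At a mean log2 of at least 13 the ribosomal protein genes differed a little less than the others. At 12 to 13 they differed more in LM and UM. Probe sets outside the family with a mean log2 of at least 13, 28 in number, had medians of 0.44 in p75, -0.72 in LM, -0.03 in OFT and 0.56 in UM. The 16 ribosomal protein genes in that range had 0.34, -0.60, -0.02 and 0.44. At 12 to 13 the 199 other probe sets had medians of 0.26, -0.29, 0.03 and 0.24, and the 17 ribosomal protein genes 0.24, -0.54, -0.10 and 0.42. In each range below 12, the medians of the other probe sets lay between -0.06 and 0.06 in each pair. The 3′ control probe sets of Actb and Gapdh differed by -0.66 and -0.67 in LM and both by 0.55 in UM. With a curve of difference against signal removed from each array, or with quantile normalization, the median of the 44 genes was -0.05 or 0.01 in LM and 0.02 or -0.02 in UM.

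**Figure D2:**
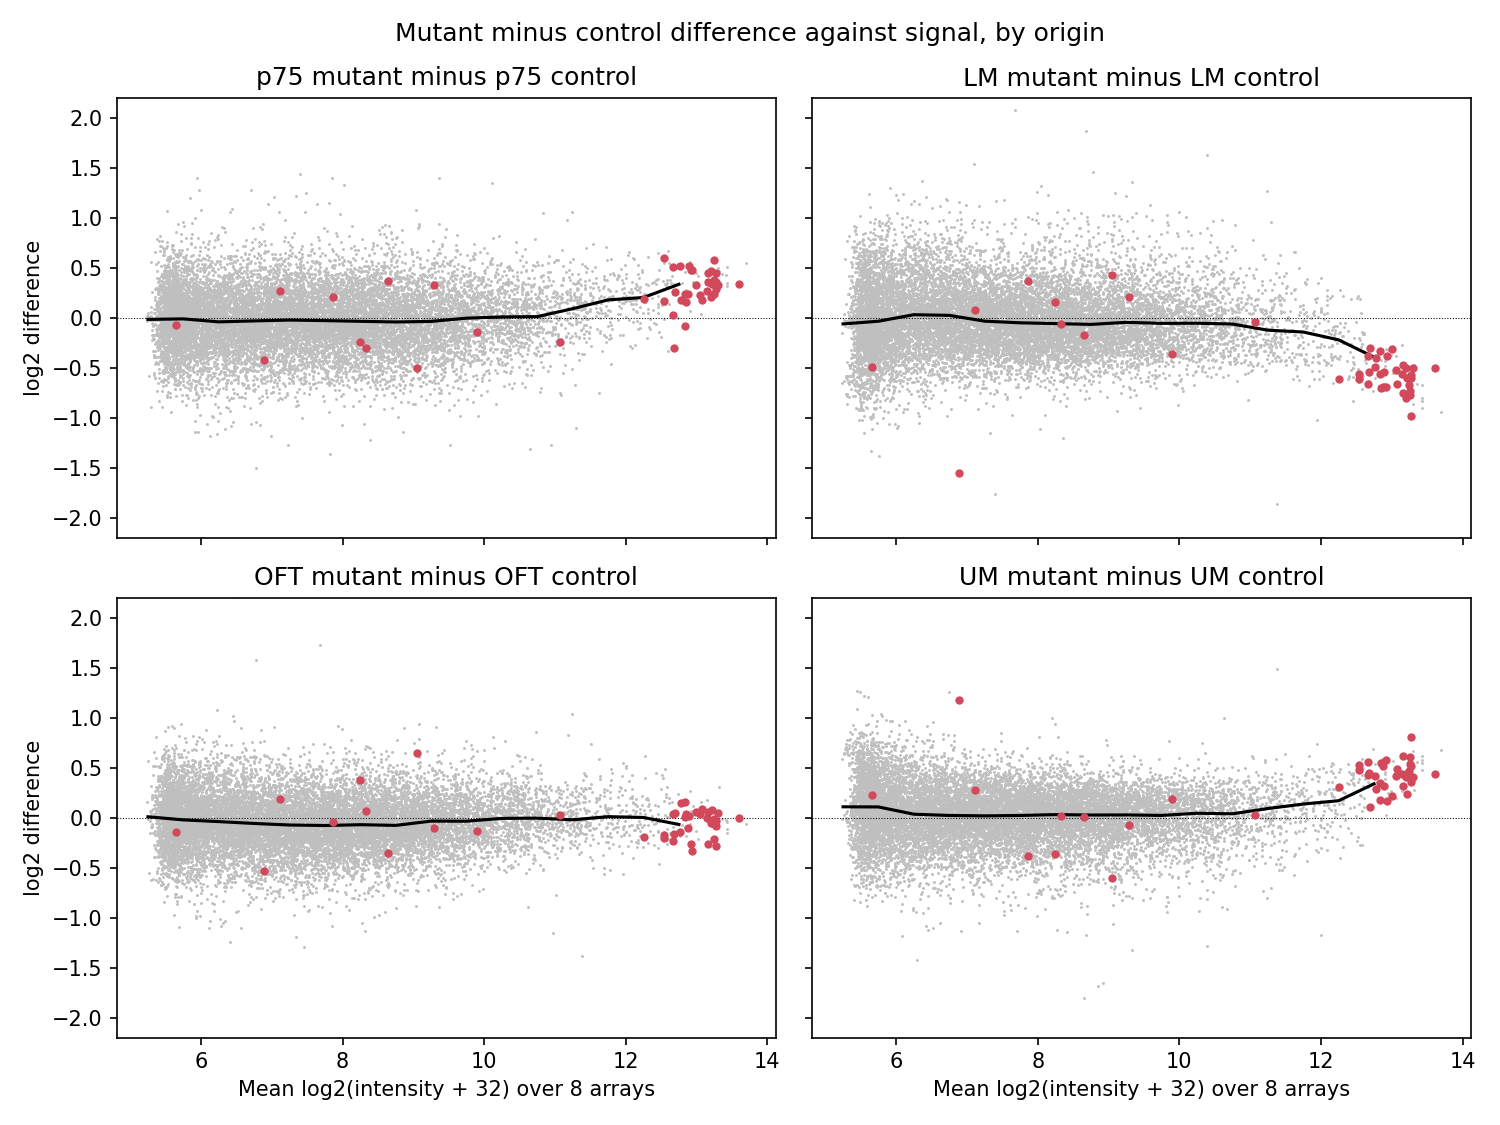
Mutant minus control log2 difference against mean log2(intensity + 32) for each tested gene in the 4 origins. Grey points are other genes, the black line their median in steps of 0.5 holding at least 20 genes, and red points the 44 ribosomal protein genes. At the bright end the line and the red points lie below 0 in LM and above 0 in UM and p75.

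Erythroid and proliferation markers also differed in these pairs. The erythroid list, 5 of 6 on the array, summed to 45212 and 29583 on the LM control and mutant, 27244 and 37710 on the UM control and mutant, 14923 and 17880 on the p75 arrays and 19045 and 23002 on the OFT arrays. The markers of dividing cells, 5 of 6, summed to 22241 and 16520 in LM, 15341 and 18595 in UM, 13580 and 14529 in p75 and 13992 and 13660 in OFT. The embryonic globins Hbb-y, Hba-x and Hbb-bh1 read at least 2688 on each array, and Hbb-y itself read 16427 on the LM control. The part of these cells, of the signal range and of the spike-ins in the differences of the ribosomal protein genes was not tested. In whole samples, fewer cells of a type and less RNA per cell cannot be told apart.

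Counts past a fold show the same pairs. In LM, 16 of 44 genes were at least 1.5-fold lower in the mutant, 36.4% beside 3.43% of all genes, and 0 were higher, beside 4.53%. In UM, 4 genes were at least 1.5-fold higher, 9.09% beside 2.51%, and 1 was lower, beside 2.08%. The 4 were Rps27, Rpl41, Rpl35 and Rps2, and the lower one was Rpl37, named here after their values were seen. In p75-sorted cells 1 gene, Rps19, was higher, beside 2.4% of all genes, and 0 were lower, beside 3.38%. In OFT 1 gene, Rpl37, was higher, beside 1.34%, and 0 were lower, beside 2.53%. At 2-fold, Rps27 was the 1 gene that passed, lower in LM beside 0.148% of all genes and higher in UM beside 0.0812%. For the other directions at 2-fold 0 of the 44 genes passed, beside 0.199% higher and 0.192% lower in p75, 0.413% higher in LM, 0.0517% higher and 0.133% lower in OFT and 0.14% lower in UM.

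Rps27, a zinc-finger protein of the small subunit, gave the widest swings. Its probe set read 217 on the LM control and 53.1 on the LM mutant, 81.7 on the UM control and 226 on the UM mutant. It read 53.2 and 31.5 on the p75 control and mutant and 97.8 and 57.5 on the OFT control and mutant. The LM control and UM mutant stood apart from the other 6 arrays, 97.8 at most, at a signal far below the bright range. The differences were -1.55 in LM, 1.18 in UM, -0.42 in p75 and -0.54 in OFT. Rpl41, the smallest ribosomal protein, had the next largest swing, from 17089 to 8623 in LM (-0.98) and from 7869 to 13803 in UM (0.81).

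Rpl37, a zinc-binding protein of the large subunit read from an x type probe set, went the other way from Rps27 in LM, UM and OFT. In p75-sorted cells both were lower in the mutant. It read 745 on the LM control and 1013 on the LM mutant, 943 on the UM control and 610 on the UM mutant, 427 and 686 on the OFT control and mutant, and 201 and 132 on the p75 control and mutant. Its differences were 0.43 in LM, -0.60 in UM, 0.65 in OFT and -0.50 in p75. Rpl27a (0.37 in LM, -0.38 in UM) and Rpl12 (0.16 and -0.36) shared that order. Rps27l, the p53-responsive copy of Rps27, differed by less within each origin: 2828 and 2747 in LM, 2865 and 2914 in UM, 2274 and 2321 in OFT, and 1188 and 998 in p75-sorted cells.

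Across the 44 genes the LM and UM differences mirrored each other gene by gene, although the pairs share no array. Of the 44, 43 had opposite signs in the 2 origins, 97.7% beside 63.7% of all genes tested. Pearson's r across the 44 genes was -0.94 and Spearman's rho -0.90, beside -0.33 and -0.33 across all 13543 genes. Within the 33 bright genes, r was -0.84, and it was -0.84 also with the curve against signal removed, when 28 of the 33 had opposite signs. Within the 11 dimmer genes r was -0.93. The OFT differences went with those of LM (r = 0.62) and against those of UM (r = -0.63), and the p75 differences were only loosely related to them, with r of -0.23 to LM and 0.32 to UM. These are correlations across genes, which share their arrays and their range of signal and are not independent replicates. The genotype labels of the LM arrays were not checked here, since the targeted transcript was not analysed. Exchanged labels would turn the sign of every LM difference, and neither this nor a batch was tested.

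**Figure D3:**
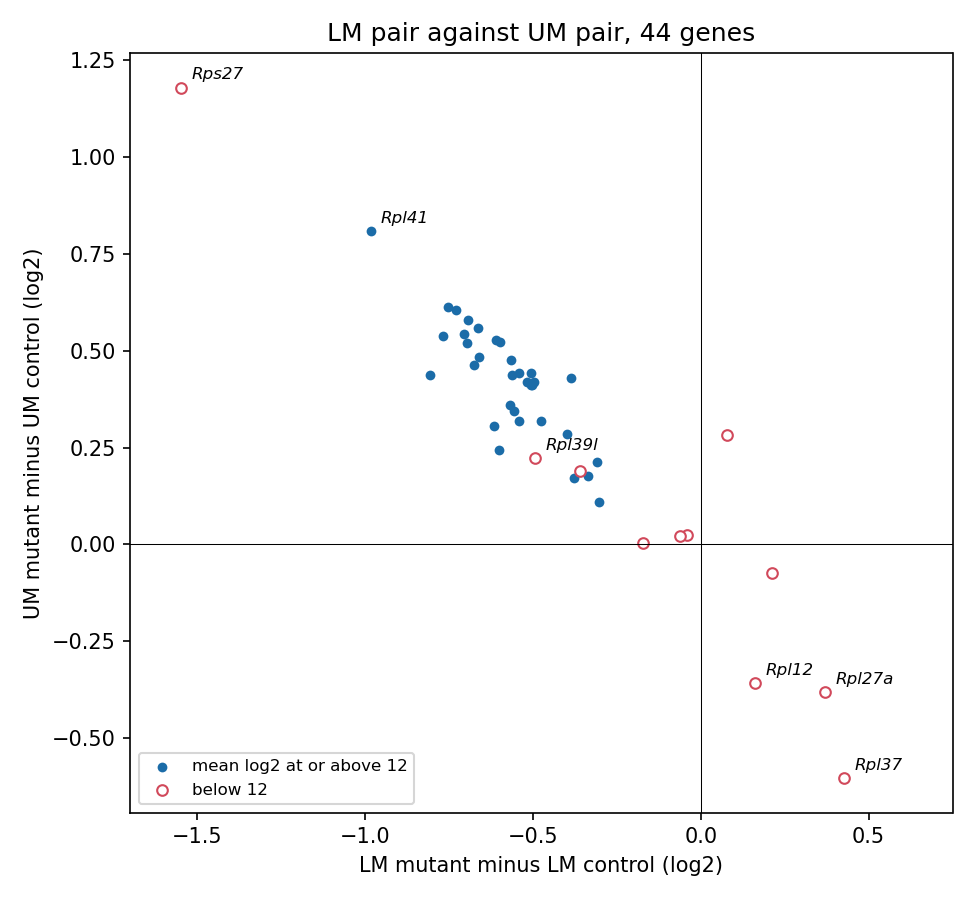
UM mutant minus control difference against LM mutant minus control difference, log2 scale, 1 point per gene for the 44 ribosomal protein genes. Bright genes (filled) lie in the quadrant lower in LM and higher in UM, and Rps27 and Rpl37 lie at opposite ends of the same falling line (r = -0.94).

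OFT against LM and UM compared the origin rich in heart muscle markers with the other whole samples. The genes lay a little lower in OFT: 43 of 44 were below 0, with a median of -0.37 beside 0.01 for all genes. By limma, 0 of 44 were called higher, where 11.3% of all genes were, and 1 was called lower, 2.27% beside 3.89%. At an unadjusted p under 0.05 there were 12 of the 44, 27.3% beside 28.6%. Other probe sets with a mean log2 of at least 13 had a median of -0.36 here and those from 12 to 13 a median of -0.28, against -0.38 for the ribosomal protein genes in both ranges. The median was -0.02 with quantile normalization and -0.07 with the curve removed. Without the LM control it was -0.18, without the LM mutant -0.55, without the UM control -0.49 and without the UM mutant -0.24. The median thus turned on single arrays. The count of called genes moved as well. Among all genes the lower calls, 527 as deposited, were 477 without the LM control and 584 without the LM mutant. They were 468 without the UM control and 420 without the UM mutant. Nothing is read from the count of the 44 genes. Rps4l, a copy of Rps4x, was the 1 gene above 0, at 0.01 ± 0.16, and Rps4x differed by -0.31 ± 0.19.

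The called gene was Rpl39l, a copy of Rpl39 known from testis. It read 6.91 and 3.24 on the OFT control and mutant, 34.1 and 14.99 in LM, 22.5 and 31.6 in UM, and 22.04 and 19.3 in p75-sorted cells. Both OFT arrays were the lowest of the 8 and lay below the filter of 19.4, as did the LM mutant and, narrowly, the p75 mutant. The difference was -0.63 ± 0.17 (2 OFT against 4 arrays, limma adjusted p = 0.0265). It no longer passed with 64 added to intensities (adjusted p = 0.0739), nor without either OFT array, the LM control or the UM mutant, with adjusted p-values from 0.0757 to 0.242. Rpl39 itself differed by -0.17 ± 0.15. Rps7 (-0.54 ± 0.20) and Rpl22 (-0.43 ± 0.16) followed in order of unadjusted p and did not pass by limma, with adjusted p = 0.0925 and 0.0976.

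LM against UM called 0 of the 44 genes in either direction by limma, where 0.738% of all genes were higher in LM and 0.812% lower, and 0 of the 44 had an unadjusted p under 0.05, beside 8.51% of all genes. The median of 0.21 turned to -0.14 without the LM control and to -0.02 without the UM control. It was 0.58 without the LM mutant and 0.45 without the UM mutant. Rpl13a (0.37 ± 0.22), Rpl4 (0.38 ± 0.25) and Rpl37a (0.33 ± 0.25) had the smallest unadjusted p on the higher side, and Rps6 (-0.11 ± 0.18), Rps27 (-0.23 ± 0.43) and Rpl39l (-0.08 ± 0.20) on the lower side.

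The sorted neural crest cells held most of the calls, and here single genes parted from the rest. Set against the average of the other 3 origins, 19 of 44 genes were called lower by limma, 43.2% beside 18.9% of all genes, and 3 were called higher, 6.82% beside 28.2%. The median was -0.42, beside 0.07 for all genes. The 22 calls became fewer when either p75 array was left out, and so did the calls among all genes. These went from 3818 higher and 2562 lower to 2678 and 1734 without the p75 control. Without the p75 mutant they were 2042 and 1196. Sorting, pooling and origin cannot be told apart here, since only the p75 arrays were sorted. Besides their Gapdh 3′ to 5′ ratios of 2.82 and 4.91, the 3 control probe sets of 18S rRNA gave geometric means of 221 to 725 outside the sorted cells, and of 2876 and 5959 for p75 control and p75 mutant. Marker lists differed here too. Called lower were 3 of 5 markers of dividing cells, 2 of 5 erythroid, 4 of 4 endothelial and 4 of 4 epithelial ones, and 0 of these were called higher. All 6 neuron markers were called higher. The part of all these differences in the calls of the ribosomal protein genes was not tested. The split changed with the scaling, to 6 higher and 12 lower with quantile normalization and the same with the curve removed. With arrays centred on their medians it was 4 and 13. The shares of all genes called under these scalings were not set beside these counts. Whether the shift belongs to the 44 genes or to all genes cannot be told from them. Other probe sets with a mean log2 of at least 13 had a median of -0.34, and the 16 ribosomal protein genes in that range -0.42. From 12 to 13 the medians were -0.17 and -0.59.

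The steepest was Rpl37, with the intensities given above: both p75 arrays, 201 and 132, lay under the lowest of the others, 427. Its difference was -1.93 ± 0.23, 3.80-fold lower in p75-sorted cells (2 against 6 arrays, limma adjusted p = 4.2e-05). Rpl37a, another zinc-binding protein of the large subunit, read 3136 and 3706 in p75-sorted cells against 7521 to 15490 elsewhere, without overlap, a difference of -1.50 ± 0.20. Rps24 read 3373 and 3808 against 6777 to 12074 (-1.28 ± 0.16). Rps10 read 3905 and 3685 against 7187 to 12085 (-1.25 ± 0.15). Both belong to the small subunit, and their loss of function in humans causes Diamond-Blackfan anaemia. Rps27l stood at 1188 and 998 against 2274 to 2914 (-1.26 ± 0.14, limma adjusted p = 3.1e-05), on 3 probe sets that ranged from -1.58 to -1.26. In each of these genes the p75 arrays were the lowest of the 8, and all 5 stayed called under each alternative run that held them. Rpl37 has 1 probe set, of x type, so the run without x and s types left it out.

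Further genes called lower were Rps15 (-0.89 ± 0.18), Rps19 (-0.85 ± 0.22), Rps26 (-0.83 ± 0.20), Rpl27 (-0.80 ± 0.18), Rpl38 (-0.80 ± 0.20), Rps9 (-0.73 ± 0.18) and Rpl11 (-0.59 ± 0.19). Rps19 and Rps26 are likewise Diamond-Blackfan genes in humans. In the mouse, loss of Rpl38 gives the tail-short skeletal phenotype, and Rpl11 binds the p53 regulator Mdm2. These 7 and the 5 steepest make up the 12 genes called lower as deposited, with quantile normalization and with the curve removed. The remaining 7 of the 19, Rps27, Rps29, Rpl19, Rpl7a, Rpl7, Rps14 and Rps20, lay between -0.92 and -0.46 and were not called with the curve removed. The call of Rps27 was lost in 12 of 18 alternatives.

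The genes called higher were all outside the bright range, each read from a plain probe set. Rps25 and Rpl14 have no other probe set, and the other one of Rpl27a read at most 6.17. Rps25, a protein of the small subunit's head needed by some viral internal ribosome entry sites, read 548 and 718 in p75-sorted cells against 257 to 346 elsewhere. The p75 arrays did not overlap with the others, and the difference was 0.96 ± 0.16 (limma adjusted p = 0.00053). Rpl27a read 255 and 300 against 146 to 228 (0.55 ± 0.17), and Rpl14 read 433 and 346 against 248 to 277 (0.51 ± 0.15). Both were without overlap, and the 3 genes stayed called with either other scaling. Rpsa read 8133 and 11361 against 5905 to 9838, an overlap, with 0.42 ± 0.22 (limma adjusted p = 0.141). It passed with the curve removed (0.69 ± 0.15, adjusted p = 0.00292), as did Rps3 (0.61 ± 0.14) and Rps18 (0.56 ± 0.15). Rplp0 (-0.46 ± 0.20) and Rplp2 (-0.34 ± 0.22) did not pass.

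**Figure D4:**
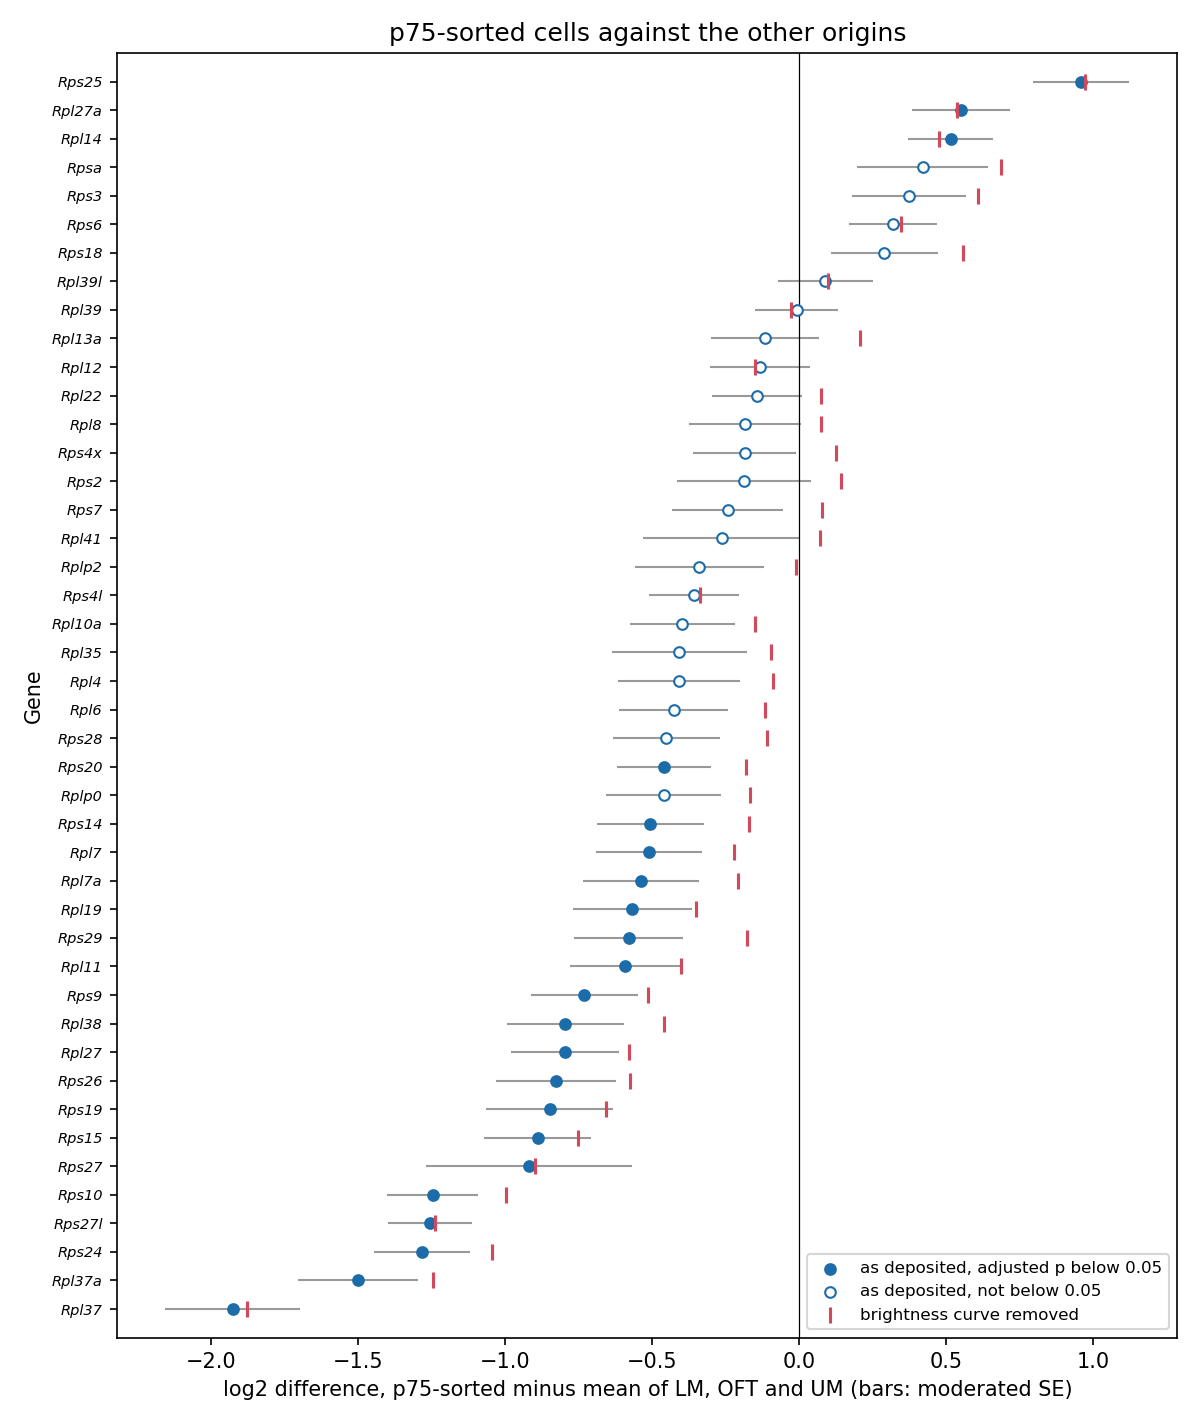
log2 difference of the 44 genes between p75-sorted cells (2 arrays) and the mean of LM, OFT and UM (6 arrays), with the moderated SE as bars. Filled circles passed an adjusted p of 0.05 as deposited, and red ticks give the value with the curve against signal removed. Rpl37 at -1.93 and Rps25 at 0.96 are the ends of the order.

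Probe sets of 1 gene did not always give 1 answer. Of 18 genes with several probe sets at a mean log2 of at least 10, 7 had p75 differences more than 1 apart. In 15 every such probe set lay below 0, and in Rps18, Rps9 and Rpl22 they lay on both sides. Rps24 ranged from -2.70 to -1.28 over 4 x type probe sets, Rpl37a from -2.88 to -1.50 and Rps10 from -1.87 to -0.24. The brightest probe set was the least negative for Rps24 and Rpl37a. For Rps9, the s type probe set in use gave -0.73 and an x type one 0.37. Averaged over its probe sets, Rps9 was no longer called by limma (-0.15, adjusted p = 0.319). Probe sets below a mean log2 of 10 were not in these counts and went both ways. In Rpl41, those at 8.13 and 7.56 gave 1.84 and 1.02, against -0.26 and -0.56 for its brighter ones. A dim one of Rps24 (7.74) gave -0.44 and of Rps20 (6.84) -0.57. The genes called higher, Rps25, Rpl27a and Rpl14, were read only at such signals.

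**Figure D5:**
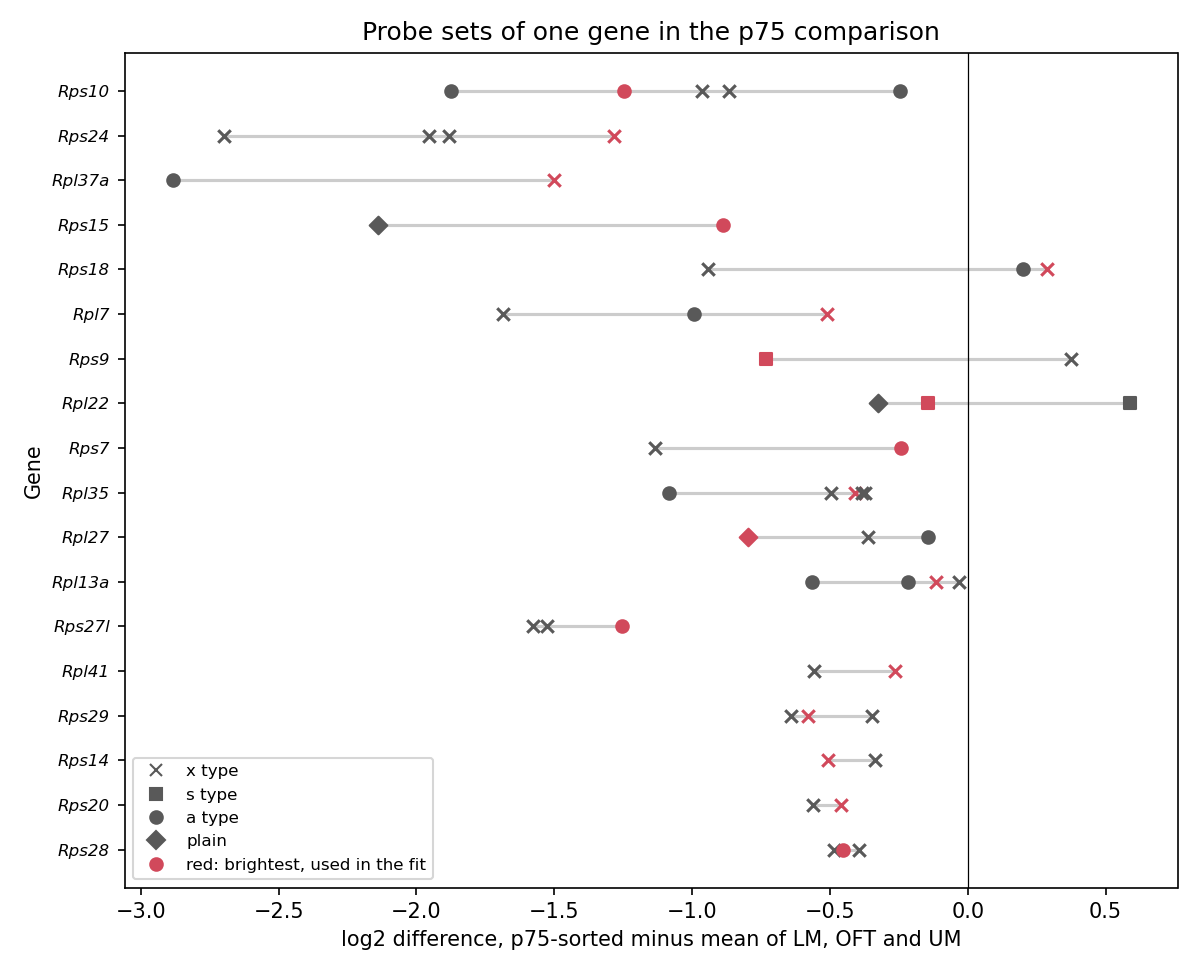
log2 difference between p75-sorted cells and the mean of LM, OFT and UM for each probe set of mean log2 at least 10 in 18 genes. Shapes give the probe set type, and red marks the brightest probe set, the one fitted. Rps10, Rps24 and Rpl37a spread over more than 1 log2 unit but stay below 0, and Rps18, Rps9 and Rpl22 cross it.

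The LM and UM pairs showed the same disagreement. One x type probe set of Rps10 read 1528 on the LM control and 4987 on the LM mutant, 4314 on the UM control and 1155 on the UM mutant, and 1585 and 1601 in OFT. Its LM difference was 1.69, while the other Rps10 probe sets of that signal ranged down to -0.83. An x type probe set of Rpl7 behaved likewise, with 3177 and 6243 in LM, 6191 and 2901 in UM, and 1804 and 4111 in OFT. Against these, the probe set of Rpl7 in use read 13256 and 9245 in LM. The only probe set of Rpl37, also x type, differed in LM, UM and OFT in the directions of that dimmer Rpl7 one. What the x type probes bind besides these transcripts was not tested. The 110 family probe sets that the annotation ties to several genes, left unnamed, had medians of 0.18 in p75, -0.55 in LM, -0.06 in OFT and 0.39 in UM.

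Other genes of translation were set beside these. Of 35 translation factors tested, 12 fell and 8 rose in p75-sorted cells, 34.3% and 22.9% beside the 18.9% lower and 28.2% higher among all genes. Eif4a1, the cap-complex helicase, fell by 2.27 ± 0.19, Eif1a, a scanning factor, by 1.25 ± 0.22, and Eif3b rose by 1.06 ± 0.14. Of 33 genes of ribosome assembly and rRNA synthesis, 10 fell and 7 rose (30.3% and 21.2%), with Taf1b, a factor of RNA polymerase I, at -1.31 ± 0.17, Bop1 at 1.22 ± 0.14 and Rrp9 at 1.04 ± 0.25. Of 76 mitochondrial ribosomal protein genes, 35 fell and 11 rose (46.1% and 14.5%), with Mrpl50 at -1.83 ± 0.18, Mrpl14 at -1.40 ± 0.16 and Mrpl32 at -1.39 ± 0.16. Of 7 further genes outside the symbol rule, not all of them ribosomal protein genes, 4 fell (57.1%) and 0 rose. They were Btf3 (-2.13 ± 0.16), Fau (-0.99 ± 0.20), which encodes a ribosomal protein fused to a ubiquitin-like one, Naca (-0.70 ± 0.16) and Rpl22l1 (-0.55 ± 0.17), the copy of Rpl22. Medians of the 4 lists were -0.20, 0.06, -0.30 and -0.55, beside -0.42 for the 44 genes and 0.07 for all genes.

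In OFT against LM and UM these lists held few calls, where 11.3% of all genes were higher and 3.89% lower. Eif4ebp1, the translation repressor that mTOR inactivates, rose (0.59 ± 0.17), and Naca (-0.56 ± 0.17), Mrpl33 (-0.54 ± 0.17) and the assembly list's Nip7 (-0.62 ± 0.16) and Mycn (-0.48 ± 0.15) fell. By limma 0 genes of these lists were called for genotype or for LM against UM. At an unadjusted p under 0.05 there were 0 for genotype, and for LM against UM 2 assembly genes and 1 mitochondrial ribosomal protein gene. Within origins the mitochondrial ribosomal protein genes had medians of -0.06 in p75, -0.22 in LM, -0.01 in OFT and 0.14 in UM, with 62 of 76 lower in LM and 61 of 76 higher in UM.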

How the data were processed

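The series' value table holds deposited intensities, not logged, of 45101 probe sets on 8 arrays. The software used by the authors was not given in the sources used here, nor was the scaling described. The deposited values have a trimmed mean of 150 on each of the 8 arrays, so they had been brought to a common scale. Precision is limited by the number of arrays. Gene names came from the platform annotation, which ties 34945 probe sets to 1 gene and 932 to several; the latter were left out of the fit. Intensities were turned into log2(intensity + 32), each gene was read from its brightest probe set, and genes with at least 2 of 8 arrays above the 40th percentile, 19.4, were fitted with limma 3.58.1 in R 4.3.3 with terms for origin and genotype (3 residual degrees of freedom, prior 9.18). P-values were adjusted by Benjamini-Hochberg over 13543 genes for each of 4 comparisons, with a threshold of 0.05; values after ± are moderated SEs. The pairing came from the origin label; control and mutant deviations correlated at 0.866 in p75, 0.553 in LM, 0.693 in OFT and 0.609 in UM.

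The members, lists, comparisons and alternatives were chosen with earlier results of these data known. Genes named are the largest called changes of each comparison (5 a side, or the smallest p), those changed 2-fold within an origin, the stalk proteins, the copies and their parents, the brightest and dimmest, and the 3 largest folds of each other list. Removing a lowess curve of each array's deviation from the mean array against signal (span 0.02) was an alternative added after the data were seen. Promoters are RefSeq's, GRCm38.p6; the array values carry no genome build.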

Additional observations from a re-analysis of the deposited data

Results flagged for a closer look

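The ribosomal protein genes differed in opposite directions in 2 origins under the same contrast. The median mutant minus control difference was -0.53 in LM and 0.41 in UM (log2 scale, 44 genes, 1 array per genotype). All 33 bright genes were lower in the LM mutant and higher in the UM mutant. The difference between the origins was not tested, since each origin has 1 array per genotype. Other probe sets with a mean log2 of at least 13 differed by -0.72 in LM and 0.56 in UM, and the cre 3′ spike-in by -1.23 and 0.56. The 18 spike-in probe sets together had medians of -1.01 in LM and -0.03 in UM, so as a set they did not follow in UM.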

How the results depend on the processing

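Of 162 alternative values of counts and medians, 138 stayed within the limits set for them and 24 did not. For medians the limit was a spread, 0.41 for genotype and 0.65 for LM against UM. It was 0.029 for OFT against LM and UM and 0.22 for p75-sorted cells. The LM against UM median thus counted as within although it turned from 0.21 to -0.14 without the LM control. Genotype counts were 0 in each run. The 138 is therefore not read as a measure of robustness. For OFT against LM and UM, the count of 1 gene became 0 with 64 added to intensities, 6 with probe sets averaged by gene, and 0 to 23 with 1 array left out, and the median of -0.37 became -0.021 with quantile normalization, -0.33 with arrays centred on their medians, -0.066 with the curve removed and -0.55 to -0.18 with 1 array left out. For p75-sorted cells, 22 calls became 10 with 1 added and 7 to 30 with 1 array left out, 7 of them without the p75 control, 11 without the p75 mutant, and the median of -0.42 became -0.13 with quantile normalization and -0.15 with the curve removed. Within LM the median became 0.011 with quantile normalization and -0.047 with the curve removed, and within UM -0.020 and 0.023. For genotype, the fit without the origin pairing (no replicate block) called 0 genes, as did each alternative run. All genes called in p75-sorted cells split 3818 higher and 2562 lower, and 3119 and 3125 with probe sets averaged by gene. Calls among all genes also fell with 1 added (3048 and 2051), without the p75 control (2678 and 1734) and without the p75 mutant (2042 and 1196). Without the LM mutant, the run with 30 calls, they were 3743 and 2494. For OFT the split was 1533 and 527, and 1293 and 789 with probe sets averaged by gene. It was 1574 and 562 with 64 added and 522 and 109 without the OFT control. Without the LM mutant, the run with 23 calls, it was 1570 and 584. Nothing is read from the changes in the counts of the 44 genes. The p75 calls of Rpl37a, Rps24, Rps10, Rps27l and Rps25 held in each alternative. That of Rpl37 held in each but the run without x and s type probe sets, which left the gene out. The causes were not tested. Bright probe sets were compared across arrays whose bright ends differ, and dim ones near an intensity of 32 have understated folds.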

Other observations

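The neuron markers, 6 of 6 on the array, also differed one way in LM and the other way elsewhere. All 6 were higher in the LM mutant, with a median of 0.46, and all 6 were lower in the p75, OFT and UM mutants, with medians of -0.76, -0.77 and -0.63. Their summed intensity was 376 and 749 on the LM control and mutant, 1344 and 685 in UM, 3640 and 2192 in OFT and 4886 and 2669 in p75-sorted cells. By limma 0 of the 6 were called for genotype, and 3 had an unadjusted p under 0.05, beside 412 of 13543 genes, 3.04%. Whether the LM arrays carry exchanged labels was not tested.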
